A study of Mus musculus with 24 samples.

Results

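Tamoxifen-treated and untreated mammary glands were compared in aged mice of the CYP19A1 line, 3 mice against 3, chosen as the samples labelled with tamoxifen and those of the same line and age labelled with no treatment; these are 6 of the 24 samples in the series. All 6 mice carried the genotype MMTV-rtTA/tet-op-CYP19A1, were 20 months old and had had the transgene induced for 8 months. CYP19A1 encodes aromatase, the enzyme that makes oestrogens from androgens, and the MMTV promoter that drives the rtTA activator is active mainly in mammary epithelium. The tamoxifen mice had received 25 mg in a subcutaneous implant, releasing over 60 days, at 18 months and carried it for 2 months. The untreated mice bear the tag PLA in their descriptions, which the labels do not explain, so whether they carried an empty implant is unknown here. For comparison the report draws on 3 CYP19A1 mice of 20 months given letrozole, an aromatase inhibitor (2.5 mg over 60 days), on 3 CYP19A1 mice of 18 months after 6 months of induction, and on the 4 matching groups of 3 from the line MMTV-rtTA/tet-op-Esr1. The series asks whether tamoxifen and letrozole act differently on the ageing gland of the 2 lines. The labels call the mice of a group biological replicates. No group without a transgene was analysed here.

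Tamoxifen binds the oestrogen receptor and acts as an antagonist or a partial agonist, depending on the tissue. In the mammary gland the receptor sits in hormone-sensing luminal cells, which answer oestrogen with paracrine signals to their neighbours. Amphiregulin (Areg), a ligand of the EGF receptor, is the best known of these and is needed for ductal growth at puberty. The receptor acts on DNA either at oestrogen response elements or through other factors bound at AP-1, GC box or cAMP response element sequences.

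The promoters of 5 called genes (adjusted p under 0.05 in limma) are shown first. The first 4 are of genes higher with tamoxifen, and the last is of Areg, the called gene with the largest fall. Each runs 5′ to 3′ along the gene from 250 bases before the start site to 50 after it, from RefSeq (GRCm38.p6). Capitals mark matches, on either strand, to the response element half-site (GGTCA), the AP-1 site (TGANTCA), the GC box (GGGCGG) and the cAMP response element (TGACGTCA). All 5 windows shown hold matches, while those of the called genes Aqp2, Asic2, Ctsr and Prtn3 hold none.
Akr1cl, chr1:65032710-65033009, minus strand: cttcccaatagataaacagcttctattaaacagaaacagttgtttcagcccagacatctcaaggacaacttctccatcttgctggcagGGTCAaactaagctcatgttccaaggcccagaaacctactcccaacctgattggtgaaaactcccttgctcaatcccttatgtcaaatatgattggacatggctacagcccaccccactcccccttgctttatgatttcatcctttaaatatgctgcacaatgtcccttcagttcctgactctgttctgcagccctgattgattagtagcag
Mmd2, chr5:142608703-142609002, minus strand: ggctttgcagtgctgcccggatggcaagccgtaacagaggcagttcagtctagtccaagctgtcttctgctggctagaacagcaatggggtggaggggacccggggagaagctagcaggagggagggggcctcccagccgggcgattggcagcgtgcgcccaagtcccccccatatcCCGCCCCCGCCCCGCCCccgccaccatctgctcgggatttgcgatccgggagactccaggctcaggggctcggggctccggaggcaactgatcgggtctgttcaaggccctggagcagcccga
Nmu, chr5:76363728-76364027, minus strand: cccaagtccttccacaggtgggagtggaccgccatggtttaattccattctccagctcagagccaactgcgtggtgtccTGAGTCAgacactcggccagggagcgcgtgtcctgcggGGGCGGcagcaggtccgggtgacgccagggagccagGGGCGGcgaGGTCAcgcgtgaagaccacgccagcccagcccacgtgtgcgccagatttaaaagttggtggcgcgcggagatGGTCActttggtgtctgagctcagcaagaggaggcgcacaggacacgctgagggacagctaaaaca
Klk1, chr7:44225110-44225409, plus strand: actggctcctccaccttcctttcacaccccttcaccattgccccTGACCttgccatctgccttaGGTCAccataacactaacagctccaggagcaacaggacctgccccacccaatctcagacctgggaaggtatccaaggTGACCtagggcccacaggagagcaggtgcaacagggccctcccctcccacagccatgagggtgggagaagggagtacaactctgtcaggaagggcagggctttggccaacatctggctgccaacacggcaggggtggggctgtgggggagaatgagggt
Areg, chr5:91139349-91139648, plus strand: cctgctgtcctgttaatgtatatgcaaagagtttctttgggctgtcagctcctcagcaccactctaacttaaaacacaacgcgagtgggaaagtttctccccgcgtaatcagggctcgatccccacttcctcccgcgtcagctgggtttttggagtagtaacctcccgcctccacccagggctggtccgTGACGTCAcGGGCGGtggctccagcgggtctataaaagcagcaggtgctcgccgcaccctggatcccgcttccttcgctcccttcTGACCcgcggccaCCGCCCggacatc

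The palindromic response element (GGTCA, any 3 bases, TGACC) was in none of the 19 windows of the 15 called genes that have an entry, and in 0.07% of the 32851 windows of all genes. Its half-site was in 6 of the 19 (31.6%, against 40.5% of all windows), with 3 matches in the Klk1 window and 2 in that of Nmu. AP-1 sequences were in 3 of the 19 (15.8%, against 7.81%) and the GC box in 7 (36.8%, against 35.7%), with 3 matches in the Mmd2 window. The cAMP response element was in 1 of the 19, that of Areg, 61 bases before its start site, and in 1.79% of all windows. These are matches of letters, and no binding was measured.

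Of the 19325 genes tested, 31 passed an adjusted p of 0.05 (limma with Benjamini-Hochberg adjustment, used for every adjusted p below), which is 0.16% of those tested. Of these, 22 were higher with tamoxifen (0.114%) and 9 lower (0.0466%), while 846 genes had an unadjusted p under 0.05 (4.38%). The median difference of all genes tested was 0.05 on the log2(TPM + 1) scale, in which every log2 difference is given, with its standard error. TPM is a share of all RNA in the library, scaled by transcript length, and the added 1 understates the change of low genes. The 3 and 3 libraries did not overlap in any of the 31 genes, nor in 20.3% of all genes tested (15.4% higher and 4.88% lower). Of the 31, 11 (5 higher and 6 lower) reached the level needed for testing, 1 TPM in at least 3 of the 24 libraries, only with the group in which they were high. The last gene inside the threshold was Rps6kl1 at an adjusted p of 0.0443 and the first outside was Mtss1l at 0.0585. With 1 library left out the count was between 15 and 27: it was 15 without untreated replicate 2 or without tamoxifen replicate 2, 16 without untreated replicate 3 and 18 without tamoxifen replicate 1. Fitted on these 6 libraries alone, with no other group to set the spread, 147 genes passed, 108 higher and 39 lower, 24 of them among the 31.

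**Figure D1:**
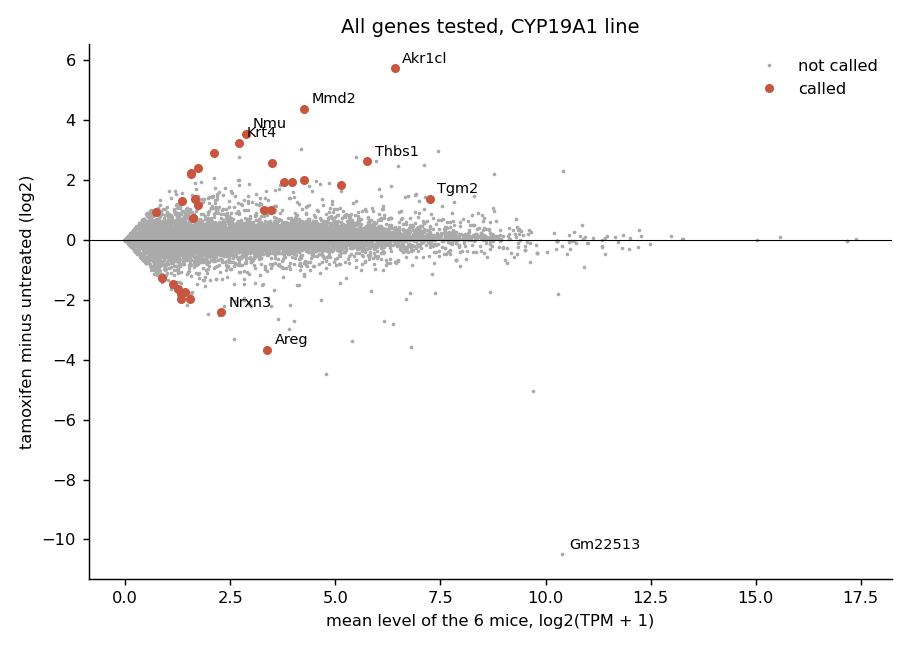
All 19325 genes tested, with the mean level of the 6 mice on the horizontal axis (log2(TPM + 1)) and the tamoxifen minus untreated difference on the vertical axis (log2); the 31 called genes are orange. Akr1cl lies at the top, at 5.71, and Areg is the lowest of the called genes, at -3.67; Gm22513, a small nuclear RNA model, lies lower at -10.50 but was not called.

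The libraries were alike in their make-up. Genes at 1 TPM or more numbered 16109 to 16656 in the 6 libraries. Mitochondrial genes took 21.0% to 27.9% of the TPM and the signal recognition particle RNA models 30.5% to 38.7%, so protein-coding genes held 28.8% to 33.7%. Read depth is unknown, since TPM keeps none. Mouse Esr1, the receptor that tamoxifen binds, stood at 19.2, 13.3 and 19.1 TPM in the untreated glands and at 14.9, 15.4 and 14.8 TPM with tamoxifen, overlapping (log2 difference -0.16 ± 0.21, adjusted p = 1). Mouse Cyp19a1 was at 0, 0.07 and 0 TPM untreated and at 0, 0.01 and 0 TPM with tamoxifen, too low to test. The labels do not give the species of the transgene, and the table analysed lists mouse genes, so the transgene's own RNA could not be checked. Mammary epithelium was present in all 6 glands, with Krt18, a luminal keratin, at 73.9 to 114 TPM and Krt14, a basal keratin, at 11.4 to 20.3 TPM.

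**Figure D2:**
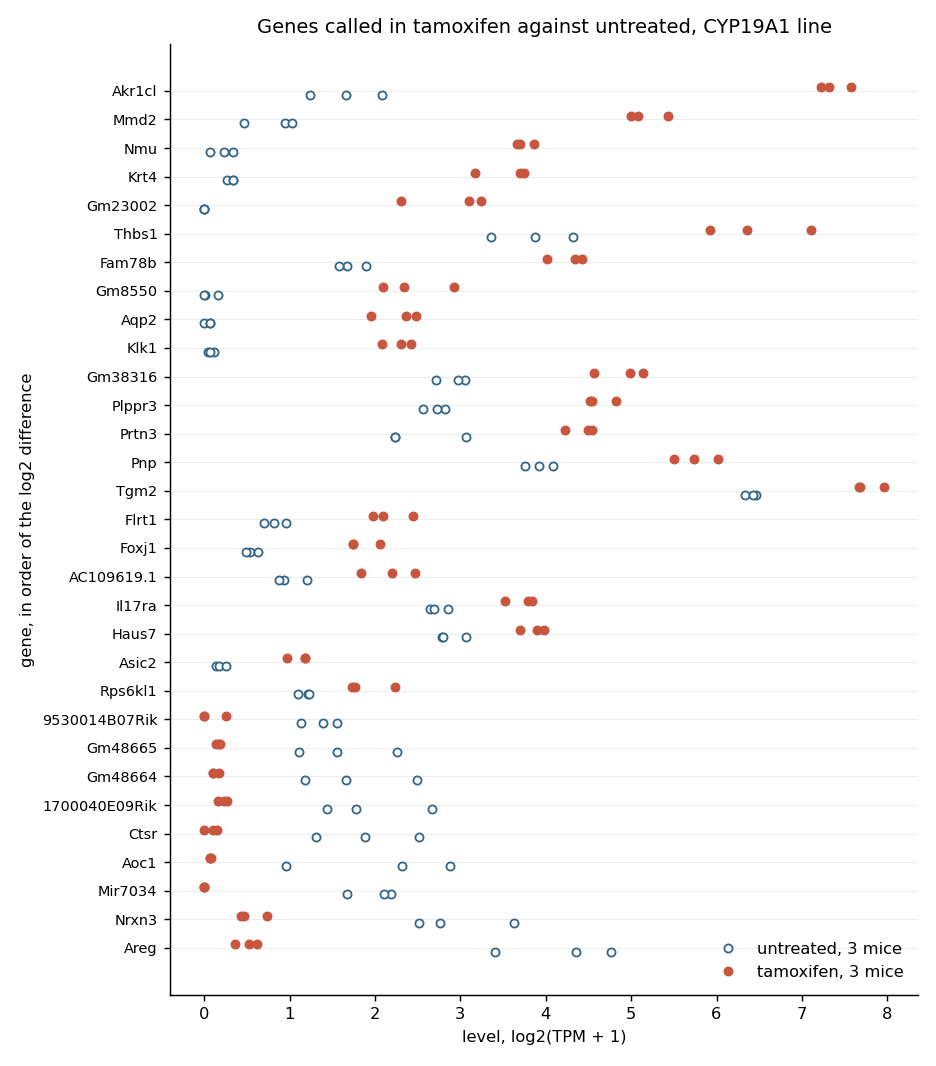
Levels of the 31 called genes in each of the 6 mice, as log2(TPM + 1) on the horizontal axis, with open points for the 3 untreated and filled points for the 3 tamoxifen mice; genes are ordered by their log2 difference. The filled points lie right of the open ones in the upper 22 genes and left of them in the lower 9, without overlap.

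The 2 largest rises were in a membrane protein and an enzyme gene, both low in the untreated gland. Mmd2, on chromosome 5 (142563480 to 142608936), encodes a membrane protein of the progestin and adipoQ receptor family. Mmd2 stood at 0.38, 0.92 and 1.04 TPM in the untreated glands and at 42.1, 32.9 and 31.0 TPM in the tamoxifen glands. The difference was 4.36 ± 0.28 (adjusted p = 2.59e-08), the smallest p of the comparison, and every tamoxifen gland was far above every untreated one. Akr1cl, an aldo-keto reductase gene on chromosome 1 (65013078 to 65032759), went from 2.16, 3.22 and 1.36 TPM untreated to 189, 158 and 149 TPM with tamoxifen. Its difference, 5.71 ± 0.72 (adjusted p = 5.65e-04), was the largest among the 31 called genes, and the lowest treated gland was still above all untreated ones. Gm8550, a processed pseudogene called as well (2.39 ± 0.21), lies within the Akr1cl gene, so reads of the 2 may not be told apart. In whole-gland RNA, fewer cells of a type and less RNA per cell cannot be told apart, which holds for every gene here.

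Tgm2 and Pnp, 2 further enzyme genes, rose from higher untreated levels. Tgm2, the cross-linking enzyme transglutaminase 2, was at 79.7, 87.0 and 85.0 TPM untreated and at 249, 204 and 202 TPM with tamoxifen. The rise was 1.36 ± 0.26 (adjusted p = 0.0275), and Tgm2 was the most abundant called gene in the tamoxifen glands. Pnp, purine nucleoside phosphorylase of the purine salvage pathway, was at 16.0, 14.2 and 12.5 TPM untreated and at 63.7, 52.3 and 44.4 TPM with tamoxifen (1.83 ± 0.31, adjusted p = 0.00998). Neither gene's groups overlapped, which the naming rule required, beside 15.4% of all genes that were higher without overlap. Tgm2 missed the threshold without any 1 of the 6 libraries (adjusted p 0.0822 to 0.163). Pnp missed it without untreated replicate 2 or 3 or tamoxifen replicate 1 or 2 (0.0609 to 0.0902).

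Nmu, Klk1 and Thbs1, which encode secreted proteins, rose too. Nmu encodes neuromedin U, a peptide that acts on smooth muscle, feeding and immune cells; it lies on chromosome 5 (76333495 to 76363777). Nmu was at 0.05, 0.26 and 0.17 TPM untreated and at 13.5, 11.7 and 12 TPM with tamoxifen (3.53 ± 0.35, adjusted p = 1.80e-05). The treated values were tightly grouped and all far above the untreated ones. Klk1, tissue kallikrein, a serine protease that frees kinins, lies on chromosome 7 (44225360 to 44229622). Klk1 was at 0.08, 0.03 and 0.05 TPM untreated and at 4.34, 3.95 and 3.24 TPM with tamoxifen (2.19 ± 0.27, adjusted p = 2.04e-04). It was nearly undetected in each untreated gland and present in each treated one. Nmu and Klk1 were tested only because of their level in these tamoxifen glands, which favoured low untreated values. Thbs1, thrombospondin 1, a matrix protein that restrains vessel growth and activates TGF-beta, was at 13.7, 19.0 and 9.25 TPM untreated and at 59.8, 80.7 and 137 TPM with tamoxifen (2.61 ± 0.34, adjusted p = 4.83e-04). Its treated glands differed from each other by more than 2-fold, yet the lowest was well above the highest untreated one.

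Prtn3 encodes proteinase 3, a serine protease of neutrophil granules. Prtn3 was at 3.70, 3.71 and 7.40 TPM untreated and at 17.8, 21.6 and 22.2 TPM with tamoxifen (1.91 ± 0.36, adjusted p = 0.0363). Its neighbour on chromosome 10, Plppr3, a lipid phosphatase-related membrane protein known from neurons, lies 4709 bases from it on the opposite strand. Plppr3 was at 4.90, 6.08 and 5.60 TPM untreated and at 21.9, 22.3 and 27.2 TPM with tamoxifen (1.92 ± 0.23, adjusted p = 2.04e-04). The neighbouring pair thus rose by nearly the same amount, with untreated replicate 3 the highest untreated gland for Prtn3 only. The Plppr3 model overlaps that of Ptbp1. Prtn3 missed the threshold without untreated replicate 1 or 2 or any 1 tamoxifen library (adjusted p 0.0941 to 0.21), while Plppr3 kept its call in every alternative run.

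Aqp2, Flrt1 and Il17ra, which encode a channel, an adhesion protein and a receptor chain, rose as well. Aqp2, the water channel that vasopressin regulates in the kidney, was at 0, 0.05 and 0.05 TPM untreated and at 4.57, 4.15 and 2.86 TPM with tamoxifen (2.22 ± 0.34, adjusted p = 0.00416). Flrt1, a leucine-rich repeat membrane protein of cell adhesion and FGF signalling, was at 0.76, 0.62 and 0.95 TPM untreated and at 3.28, 4.44 and 2.94 TPM with tamoxifen (1.35 ± 0.15, adjusted p = 5.65e-05). Both were below 1 TPM in each untreated gland and above 2 TPM in each treated one. Aqp2 was tested only because of its level in these tamoxifen glands, which favoured low untreated values. The Flrt1 gene lies within Macrod1, and Aqp2 missed the threshold with a pseudocount of 5. Il17ra, the receptor chain for interleukin 17A, was at 5.26, 5.48 and 6.21 TPM untreated and at 10.5, 13.3 and 12.8 TPM with tamoxifen (0.99 ± 0.19, adjusted p = 0.0401). It stood at about the same level in all untreated glands, below every treated one. Il17ra missed the threshold without any 1 of the 6 libraries (adjusted p 0.0698 to 0.284).

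Krt4, Foxj1 and Fam78b complete the higher genes that the naming rule took. Krt4, a keratin of stratified lining epithelia such as the oesophagus, was at 0.20, 0.26 and 0.26 TPM untreated and at 12.4, 7.98 and 11.98 TPM with tamoxifen (3.23 ± 0.37, adjusted p = 1.33e-04). Fam78b was at 2.72, 2.19 and 1.98 TPM untreated and at 20.5, 19.4 and 15.2 TPM with tamoxifen (2.55 ± 0.40, adjusted p = 0.00599). Both genes separated the groups widely and kept their calls in every alternative run. Krt4 was tested only because of its level in these tamoxifen glands, which favoured low untreated values. Foxj1, the master regulator of motile cilia, was at 0.45, 0.55 and 0.40 TPM untreated and at 2.34, 3.16 and 2.36 TPM with tamoxifen (1.3 ± 0.26, adjusted p = 0.0420). It was low in all glands and missed the threshold without any 1 of the 6 libraries (adjusted p 0.132 to 0.322). The other higher genes, named after their values were seen, were Haus7 of the augmin complex (0.98 ± 0.17), the acid-sensing channel Asic2 (0.92 ± 0.17), Rps6kl1 (0.73 ± 0.15), and the uncharacterised models AC109619.1 (1.17 ± 0.18), Gm38316 (1.99 ± 0.39) and Gm23002 (2.88 ± 0.56). Gm23002, a small nuclear RNA model, was listed at 0 in all 3 untreated glands, and estimates of such short models are uncertain. Leaving out 1 library ended the call of Haus7 (untreated replicate 1 or 2, tamoxifen replicate 1 or 2; adjusted p up to 0.0941) and of Asic2 (every library but tamoxifen replicate 3; up to 0.176). AC109619.1 lost its call with a pseudocount of 0.1 and with only the 6 libraries fitted. Rps6kl1, Gm38316 and Gm23002 lost theirs without any 1 of the 6 (adjusted p up to 0.371).

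Areg had the largest fall of the called genes and was the only called member of the gene lists described below. It lies on chromosome 5 (91139599 to 91148432). Areg was at 9.59, 26.2 and 19.5 TPM in the untreated glands and at 0.44, 0.28 and 0.54 TPM with tamoxifen. Every treated gland was under 1 TPM and every untreated one above 9 TPM, and the difference was -3.67 ± 0.59 (adjusted p = 0.00785). It missed the threshold without untreated replicate 2 or 3 or tamoxifen replicate 2 (adjusted p 0.0609 to 0.0752). Of the 12 EGF family ligands and receptors tested, no other passed, and the median of the 12 was -0.01. Btc, betacellulin, another ligand of the same receptor, was at 1.35, 2.17 and 1.48 TPM untreated and at 2.30, 2.09 and 3.06 TPM with tamoxifen, overlapping (0.39 ± 0.25). Egfr, the receptor itself, ranged from 19.8 to 24.1 TPM untreated and from 19.0 to 27.5 TPM with tamoxifen (0.02 ± 0.20).

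Aoc1, Nrxn3 and Ctsr were the other lower genes that the rule named. Aoc1 encodes diamine oxidase, which breaks down histamine. It was at 0.94, 6.34 and 4 TPM untreated and at 0.05, 0.05 and 0.06 TPM with tamoxifen (-1.98 ± 0.32, adjusted p = 0.00717). Nrxn3, the synaptic adhesion protein neurexin 3, was at 4.70, 5.78 and 11.4 TPM untreated and at 0.38, 0.66 and 0.35 TPM with tamoxifen (-2.42 ± 0.44, adjusted p = 0.0221). Ctsr, a cathepsin of a placental cluster, was at 1.48, 4.71 and 2.68 TPM untreated and at 0, 0.11 and 0.07 TPM with tamoxifen (-1.82 ± 0.35, adjusted p = 0.0385). In each of the 3 genes the treated glands were uniformly below 1 TPM, while the untreated ones differed from each other by more than 2-fold. Aoc1 and Ctsr were tested only because of their level in the untreated glands, which favoured low values with tamoxifen. Aoc1 missed the threshold without untreated replicate 2 or 3 (adjusted p 0.0681 to 0.0735) and with only the 6 libraries fitted. Nrxn3 and Ctsr missed it without untreated replicate 2 or 3 or any 1 tamoxifen library (adjusted p up to 0.171 and 0.275).

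The remaining 5 lower genes, named after their values were seen, were short or non-coding models. The long non-coding RNA 9530014B07Rik was at 1.2, 1.95 and 1.63 TPM untreated and at 0.19, 0 and 0 TPM with tamoxifen (-1.28 ± 0.19, adjusted p = 0.00199), and it kept its call in every alternative run. Mir7034, listed at 3.57, 2.20 and 3.31 TPM untreated and at 0 in each tamoxifen gland, lies inside Tmem120a, and short models inside a host gene are poorly separated from it. Tmem120a itself was at 25.5 to 37.3 TPM untreated and at 41.4 to 52.0 TPM with tamoxifen. The long non-coding RNAs Gm48664 (-1.66 ± 0.28), Gm48665 (-1.47 ± 0.29) and 1700040E09Rik (-1.74 ± 0.35) were, like Nrxn3, highest in untreated replicate 3. Mir7034 lost its call without untreated replicate 3 (adjusted p 0.0594), and Gm48664 without that library or tamoxifen replicate 2 (up to 0.0768). Gm48665 and 1700040E09Rik lost theirs without untreated replicate 2 or 3 or any 1 tamoxifen library (up to 0.333).

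The Esr1 line gave a separate view of the same genes, since its 6 libraries of tamoxifen and untreated mice of 20 months were not used in the comparison above, although the estimate of spread was shared. Its untreated replicate 2 stood apart, with 17.4% of the TPM in ribosomal RNA models, 9.82% in mitochondrial genes and 14595 genes at 1 TPM or more. All 22 genes that were higher in CYP19A1 glands had a positive difference there, and 16 of the 22 passed the threshold, against 0.709% of all genes tested that were called higher in that line. Without untreated replicate 2, 12 of the 22 passed, against 0.109% of all genes, and the calls over all genes went from 299 to 52. Nmu, Krt4, Klk1, Aqp2 and Asic2 were tested only because of their level in the CYP19A1 tamoxifen glands. Leaving aside these 5 genes, 13 of 17 passed, and 11 without that library. Mmd2 was at 0.05, 0.01 and 0.06 TPM in untreated Esr1 glands and at 9.08, 17.5 and 28.7 TPM with tamoxifen (4.09 ± 0.28, adjusted p = 8.44e-08; 4.07 ± 0.32 and 3.44e-06 without untreated replicate 2). Akr1cl was at 6.17, 0.08 and 0.35 TPM untreated and at 61.8, 72.7 and 131 TPM with tamoxifen in that line (5.28 ± 0.72, adjusted p = 0.00221; 4.77 ± 0.78 and 0.0270 without untreated replicate 2). Both genes thus rose in each line without overlap, and the difference between the lines was 0.27 ± 0.40 for Mmd2 (adjusted p = 0.865) and 0.44 ± 1.02 for Akr1cl (0.924).  Over the 22 genes the median difference was 1.96 in the CYP19A1 line, in which they were chosen, and 1.55 in the Esr1 line (1.38 without untreated replicate 2).

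Nmu, Klk1 and Thbs1, with Rps6kl1, Gm38316 and Gm23002, were the 6 higher genes not called in the Esr1 line. Nmu was listed at 0 in all 3 untreated Esr1 glands and was at 0.36, 0.57 and 4.19 TPM with tamoxifen (1.16 ± 0.35, adjusted p = 0.0902). Klk1 was at 0.48, 0.12 and 0.30 TPM untreated and at 0.06, 1.96 and 1.39 TPM with tamoxifen, overlapping (0.60 ± 0.27, adjusted p = 0.234). Thbs1 was at 52.4, 38.3 and 62.4 TPM untreated and at 60.3, 96.8 and 126 TPM with tamoxifen, also overlapping (0.84 ± 0.34, adjusted p = 0.188). The untreated Esr1 level of Thbs1 was above the untreated CYP19A1 level of 13.98 ± 4.90 TPM (SD, n = 3). The test of the difference between the lines gave 2.38 ± 0.50 for Nmu (adjusted p = 0.18), 1.60 ± 0.38 for Klk1 (0.256) and 1.77 ± 0.47 for Thbs1 (0.298), none past the threshold. Nmu passed for this difference with a pseudocount of 5 and without Esr1 tamoxifen replicate 3. Nmu and Klk1 were tested only through the CYP19A1 tamoxifen glands, which bound them to be low in most Esr1 glands. Their values in the Esr1 line therefore show nothing of a weaker response there. Without Esr1 untreated replicate 2 the difference in the Esr1 line was 1.16 ± 0.41 for Nmu, 0.50 ± 0.30 for Klk1 and 0.65 ± 0.37 for Thbs1, and no gene of the table passed for the difference between the lines.

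**Figure D3:**
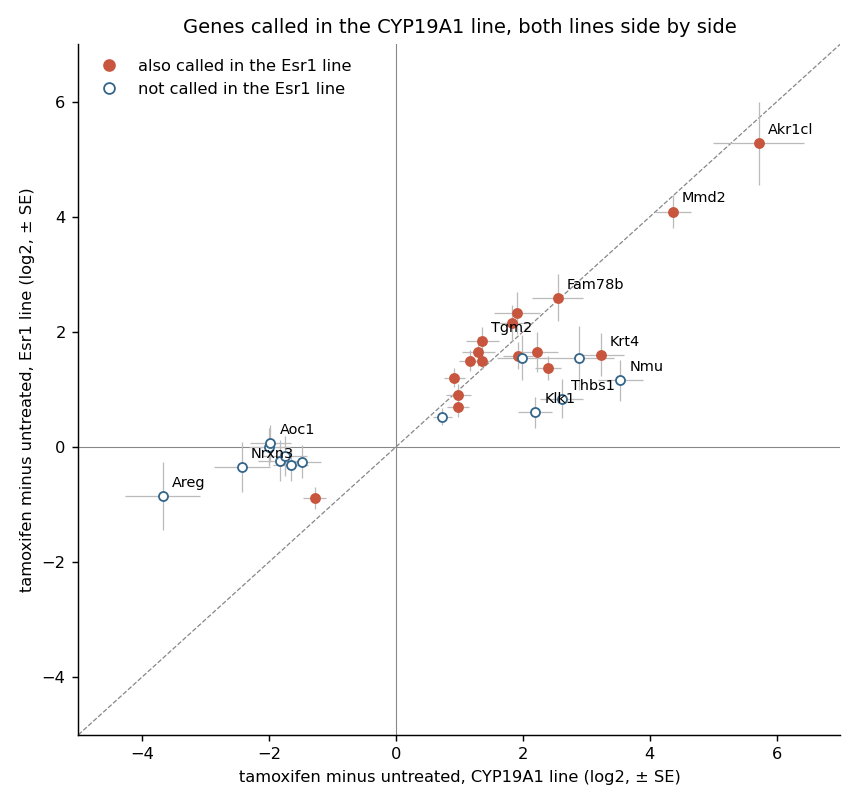
Tamoxifen minus untreated difference (log2, with standard errors as bars) of the 31 genes in the CYP19A1 line on the horizontal axis and in the Esr1 line on the vertical axis; filled points were also called in the Esr1 line and the dashed line marks equal differences. Of the 22 higher genes 8 lie above the dashed line, such as Tgm2 at 1.36 and 1.83, and the others under it, such as Mmd2 at 4.36 and 4.09; Areg lies at -3.67 and -0.84.

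Among the 9 lower genes, 6 (Mir7034, Aoc1, Gm48664, Ctsr, Gm48665 and 1700040E09Rik) were tested only because of their level in the untreated CYP19A1 glands, so they were bound to be low in the Esr1 line and show nothing of a fall there. Of the other 3, 9530014B07Rik was called lower in the Esr1 line (-0.89 ± 0.19, adjusted p = 0.0249; -1.08 ± 0.18 and 0.0270 without untreated replicate 2), against 0.838% of all genes (0.16% without that library). Nrxn3 was at 1.17, 0.15 and 2.14 TPM in untreated Esr1 glands and at 0.69, 0.19 and 0.90 TPM with tamoxifen, overlapping (-0.35 ± 0.44, adjusted p = 0.721; -0.74 ± 0.46 and 0.448 without untreated replicate 2). Areg was at 11.04, 4 and 9.16 TPM in untreated Esr1 glands and at 4.83, 10.1 and 0.64 TPM with tamoxifen, overlapping (-0.84 ± 0.59, adjusted p = 0.475; -1.23 ± 0.65 and 0.373 without untreated replicate 2). The difference between the lines was -2.83 ± 0.84 for Areg (adjusted p = 0.313), -2.08 ± 0.62 for Nrxn3 (0.314) and -0.40 ± 0.26 for 9530014B07Rik (0.64). Over all genes, 0 passed that test in limma and 2021 had an unadjusted p under 0.05 (10.5%). Its count was 6 without Esr1 tamoxifen replicate 3, Nmu and Krt4 among them, and 2 without CYP19A1 untreated replicate 1, Aoc1 among them. Nmu, Krt4 and Aoc1 were tested only because of their level in the CYP19A1 group where they were high. The count was 38 with only the 20-month groups fitted and 79 with skeletal muscle and epithelial scores as covariates. The smallest adjusted p, 0.0759, was shared by Gm27405, Apoc1 and Apoc2, the last 2 being apolipoproteins of triglyceride-rich particles, named after their values were seen. Apoc1 was at 62.1, 33.6 and 38.8 TPM untreated and at 68.6, 78.5 and 60.1 TPM with tamoxifen in the CYP19A1 line (0.65 ± 0.22), and its difference in the Esr1 line was -1.12 ± 0.22.

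Levels across the CYP19A1 groups are given here for some of the called genes. Mmd2 was at 0.17, 0.13 and 1.22 TPM at 18 months and at 0.02, 0.15 and 0.18 TPM with letrozole, and Akr1cl at 0.47, 0.21 and 4 TPM and at 0.06, 0.50 and 0.09 TPM. Both were high with tamoxifen alone among the 4 groups of this line. Areg was at 16.9, 4.5 and 16.9 TPM at 18 months, near its untreated level at 20 months, and at 0.45, 1.42 and 1.70 TPM with letrozole. It was therefore low in both drug groups and high in both groups without a drug. Aoc1 was at 0.33, 0.24 and 1.39 TPM at 18 months and at 0.01, 0.16 and 0.05 TPM with letrozole. Because Aoc1 was tested only through the untreated glands of 20 months, it was bound to be low in most other glands. Nrxn3 was at 0.97, 0.70 and 4.68 TPM at 18 months and at 0.62, 2.20 and 3.46 TPM with letrozole, groups whose means lay between those of the tamoxifen and untreated mice of 20 months. Thbs1 was at 38.6, 31.5 and 18.1 TPM at 18 months and at 10.7, 12.5 and 11.5 TPM with letrozole, so its tamoxifen level was above all other CYP19A1 glands.

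**Figure D4:**
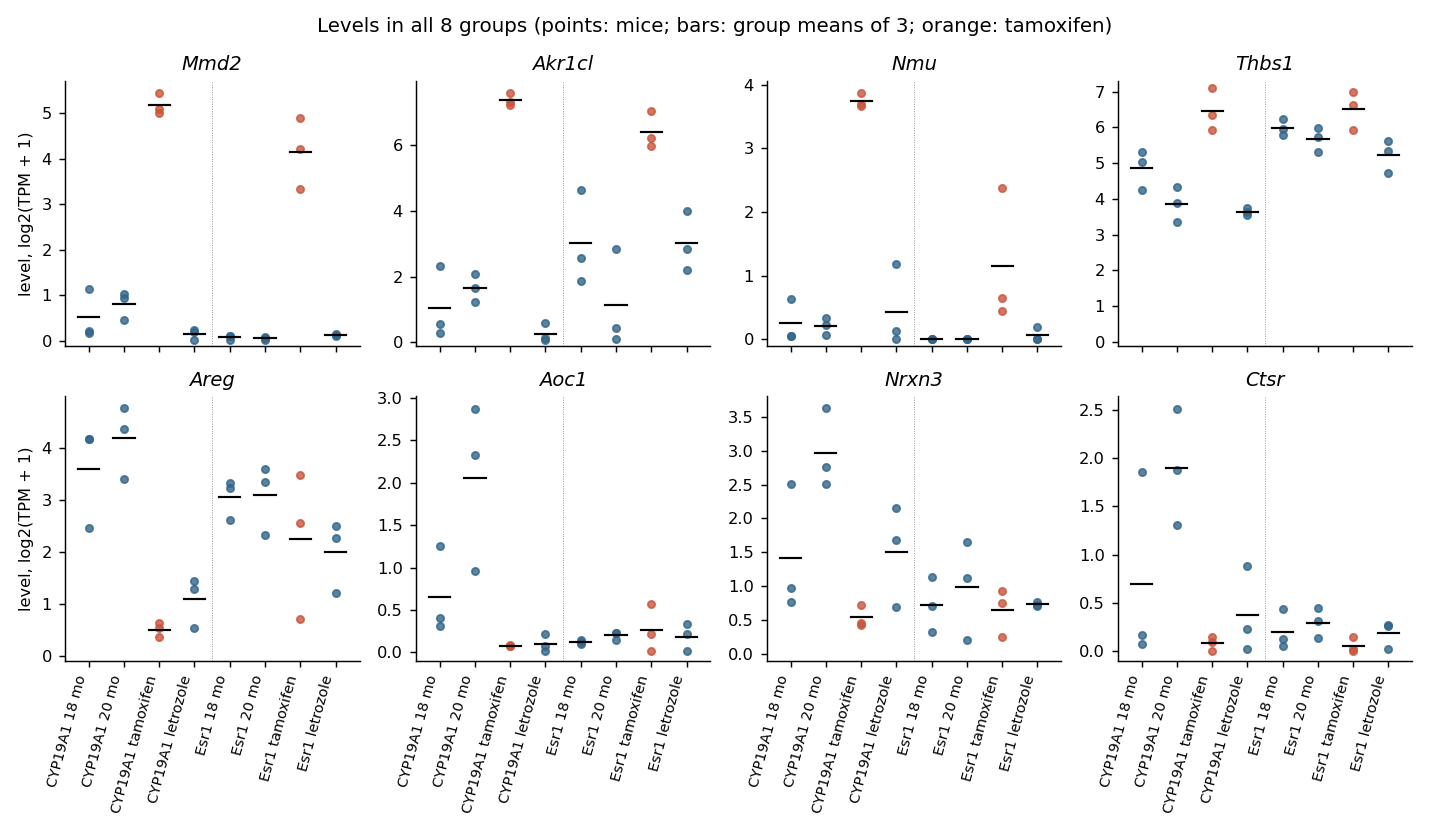
Levels of 8 called genes as log2(TPM + 1) in all 8 groups of 3 mice (points; bars are group means; orange is tamoxifen), the CYP19A1 line left of the dotted line and the Esr1 line right of it. Mmd2 and Akr1cl are high in both tamoxifen groups, and Areg is low in the CYP19A1 tamoxifen and letrozole groups. Nmu is highest in the CYP19A1 tamoxifen group, through which alone it was tested, and its difference between the lines was not called.

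The difference between the drugs was tested directly in the CYP19A1 line, a comparison that shares its tamoxifen libraries with the one above. Of all genes tested, 48 passed (0.248%), 47 higher and 1 lower with tamoxifen, around a median of 0.16 for all genes. Median-ratio scaling brought that median to 0.00 and gave 39 higher and 5 lower genes. The largest differences were in Akr1cl (7.11 ± 0.72), Mmd2 (5.01 ± 0.28), Aqp5 (3.55 ± 0.62), Nmu (3.31 ± 0.35) and Krt4 (3.26 ± 0.37). Among the 48, Nmu, Krt4, Klk1, Aqp2 and Asic2 were tested only because of their level in these tamoxifen glands. That they were lower with letrozole was favoured by that filter. Aqp5, a water channel of glandular secretion, had been at 10.5, 12.5 and 8.81 TPM untreated and at 76.6, 79.2 and 74.9 TPM with tamoxifen, yet missed the threshold against untreated (2.76 ± 0.62, adjusted p = 0.123). The lower gene was Odf3l2 (-1.37 ± 0.25, adjusted p = 0.0165). Of the lower genes not tested for their untreated level alone, Areg differed between the drugs by -0.58 ± 0.59 (adjusted p = 0.729), Nrxn3 by -0.97 ± 0.44 (0.479) and 9530014B07Rik by -0.13 ± 0.19 (0.805). Against untreated, letrozole itself gave 4 called genes, all lower (0.0207%), among them 9530014B07Rik (-1.15 ± 0.19, adjusted p = 0.0318), Aoc1 and Mir7034. Letrozole minus untreated was -3.10 ± 0.59 for Areg (adjusted p = 0.129) and -1.95 ± 0.32 for Aoc1 (adjusted p = 0.0318), beside the tamoxifen values of -3.67 and -1.98 from the same untreated libraries. Aoc1 and Mir7034 were tested only because of their level in the untreated glands. Their low letrozole values were bound to follow and show nothing of that drug. With 1 library left out the count between the drugs was 21 (without tamoxifen replicate 2) to 42; it was 28 without tamoxifen replicate 1 and 24 without letrozole replicate 1, which had the fewest genes at 1 TPM or more of the 24 libraries (14410).

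Hormone response, cell types and other programmes were read from 35 gene lists with 461 distinct members. Of the 426 that could be tested 1, Areg, passed, a share of 0.235%, near the 0.16% of all genes. In the list of hormone-sensing luminal markers 3 of 14 members had a positive and 11 a negative difference, with a median of -0.32, and their summed level was 248 to 265 TPM untreated and 165 to 193 TPM with tamoxifen. Pgr, the progesterone receptor and a classical oestrogen target, was at 8.30, 12.3 and 12.4 TPM untreated and at 6.71, 8.80 and 8.29 TPM with tamoxifen, overlapping (-0.41 ± 0.39). Prlr, the prolactin receptor, was at 37.6, 42.7 and 46.6 TPM untreated and at 24.8, 25.6 and 21.1 TPM with tamoxifen (-0.80 ± 0.35, adjusted p = 1). Wnt4, a paracrine signal downstream of progesterone, was at 3.13, 4.04 and 3.11 TPM untreated and at 1.72, 1.77 and 2.05 TPM with tamoxifen (-0.63 ± 0.22, adjusted p = 0.802). Prlr and Wnt4 did not overlap between the groups, beside 4.88% of all genes that were lower without overlap, and fell short of the threshold. Prlr passed with only the 6 libraries fitted (adjusted p = 0.0393). Of 16 oestrogen-responsive genes tested 10 had a positive and 6 a negative difference, and their median of 0.05 equalled that of all genes. Among them Greb1, a coactivator that oestrogen induces, was at 1.18, 1.69 and 4.68 TPM untreated and at 0.90, 1.53 and 0.78 TPM with tamoxifen, overlapping (-0.65 ± 0.30). Igfbp4, an IGF-binding protein, was at 104, 84.1 and 81.2 TPM untreated and at 194, 164 and 188 TPM with tamoxifen (1.02 ± 0.46, adjusted p = 1). It did not overlap, beside 15.4% of all genes that were higher without overlap.

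**Figure D5:**
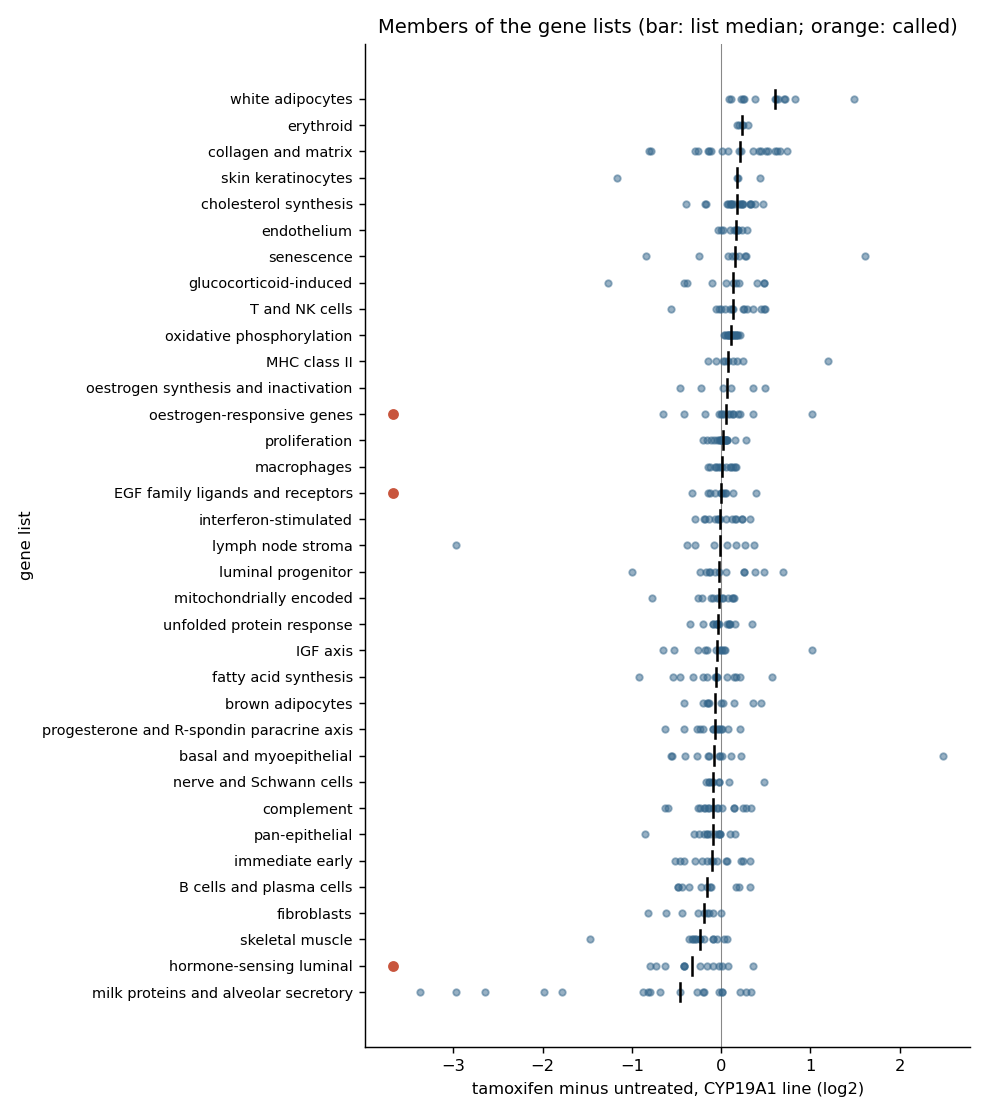
Tamoxifen minus untreated differences (log2) of the tested members of 35 gene lists in the CYP19A1 line, 1 point per gene, with a bar at each list's median; lists are ordered by it and called genes are orange. Areg at -3.67, a member of 3 lists, is the only called gene; white adipocytes have the highest median, at 0.61, and milk proteins the lowest, at -0.46.

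No member of the adipocyte, fibroblast, muscle or pan-epithelial lists was called, beside 0.16% of all genes. All 13 white adipocyte genes had a positive difference with a median of 0.61, and their summed level was 4805 to 6701 TPM untreated and 6803 to 7785 TPM with tamoxifen. Lep, leptin, was at 94.4, 85.0 and 25.6 TPM untreated and at 194, 158 and 153 TPM with tamoxifen (1.48 ± 1.04, adjusted p = 1), and Plin1, the lipid droplet coat protein, at 205 to 246 and 308 to 387 TPM (0.61 ± 0.51). Neither of the 2 overlapped between the groups, beside 15.4% of all genes that were higher without overlap. The part of fat content in the called differences was not tested. All 9 fibroblast markers tested had a negative difference (median -0.20; summed level 356 to 391 TPM untreated and 266 to 361 TPM with tamoxifen). Skeletal muscle genes, a sign of muscle in the dissected tissue, summed to 18320 to 31590 TPM untreated and 17080 to 24190 TPM with tamoxifen, overlapping, with a median of -0.23. The sum over pan-epithelial markers was 332 to 477 and 291 to 394 TPM, with a median of -0.09. With muscle and epithelial scores as covariates 30 genes passed, 27 of them among the 31.

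The 20 proliferation genes had a median of 0.02. Mki67, the marker of cycling cells, was at 2.62, 2.55 and 1.4 TPM untreated and at 1.85, 1.56 and 3.26 TPM with tamoxifen (0.00 ± 0.40). Milk proteins and secretory genes spanned a wide range within each group: Csn2, beta-casein, was at 309, 127 and 0.08 TPM untreated and at 0.77, 1.35 and 167 TPM with tamoxifen (-1.98 ± 2.12). Untreated replicate 3 was thus the lowest of its group and tamoxifen replicate 3 the highest of its own. The median was 0.13 for 15 T and NK cell genes and 0.01 for 13 macrophage genes.

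Among the list members Cdkn1c lay just outside the threshold, and Oxtr farther from it. Oxtr, the oxytocin receptor of myoepithelial cells, was at 31.2, 60.1 and 34.8 TPM untreated and at 261, 212 and 220 TPM with tamoxifen. The difference was 2.48 ± 0.58 (adjusted p = 0.14, and up to 0.574 in the alternatives), without overlap, beside 15.4% of all genes higher without overlap. With only the 6 libraries fitted the adjusted p was 0.0101, and against letrozole Oxtr passed (3.05 ± 0.58, adjusted p = 0.0257). Acta2, smooth muscle actin of the same cells, was at 98.6 to 131 TPM untreated and at 104 to 146 TPM with tamoxifen (0.22 ± 0.23), and the 12 basal and myoepithelial markers, Oxtr among them, had a median of -0.08. Cdkn1c, the cell cycle inhibitor p57, was at 9.59, 9.20 and 10.3 TPM untreated and at 35.7, 28.9 and 30.8 TPM with tamoxifen (1.61 ± 0.34, adjusted p = 0.0696). The treated glands were all about 3-fold above the untreated ones.

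Over the whole table, the genes nearest to the threshold from outside were Mtss1l, Adamts2, Malt1 and Msrb1, all higher with tamoxifen. Mtss1l was at 8.36, 7.68 and 7.75 TPM untreated and at 21.2, 22.8 and 24.02 TPM with tamoxifen (1.41 ± 0.29, adjusted p = 0.0585). Adamts2, the procollagen N-proteinase, was at 9.32, 8.28 and 7.82 TPM untreated and at 38.8, 40.0 and 29.4 TPM with tamoxifen (1.96 ± 0.40, adjusted p = 0.0613). Malt1, a paracaspase of NF-kappaB signalling, was at 14.7, 14.0 and 11.6 TPM untreated and at 36.3, 33.8 and 36.8 TPM with tamoxifen (1.35 ± 0.28, adjusted p = 0.0613). None of the 3 overlapped between the groups, which a choice by small p favours and which held for 20.3% of all genes. Msrb1, a methionine sulfoxide reductase, was at 33.9, 29.1 and 29.7 TPM untreated and at 62.5, 60.6 and 55.8 TPM with tamoxifen, also without overlap (0.93 ± 0.19, adjusted p = 0.0613). Gm22513, a small nuclear RNA model, was at 3138, 3894 and 1013 TPM untreated and at 0, 0 and 3.07 TPM with tamoxifen (-10.50 ± 2.15, adjusted p = 0.0637), but it ranged from 0 to 1583 TPM within the Esr1 tamoxifen group alone.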

How the data were processed

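Per the labels' protocols, each gland gave a stranded library of total RNA after removal of ribosomal RNA. The authors deposited 1 table of TPM to 2 decimals for 55487 genes; per the submitters' processing notes, RSEM 1.3.1, STAR 2.7.9a, build mm10, Trim Galore 0.6.5 and FastQC 0.11.9 were used, with no roles given. Under R 4.3.3, limma 3.58.1 was applied to log2(TPM + 1) (eBayes, trend and robust; checked on simulated data). All 24 samples entered 1 fit of 8 groups, over genes at 1 TPM or more in at least 3 samples, with Benjamini-Hochberg adjustment over the 19325 genes. The 3 comparisons were tamoxifen against untreated, its difference between the lines, and tamoxifen against letrozole. Named genes were Esr1, Cyp19a1, and up to 15 higher and 15 lower called genes with the largest differences, without predicted or small RNA symbols, without overlap and with a mean of at least 2 TPM in the higher group. Called list members, and up to 5 genes in each direction of the other comparisons, were added. The members and lists were chosen with earlier results of these data known. With 3 mice against 3, a permutation test cannot go below p = 0.1 (exact, two-sided), and none was used. P-values rest on the spread between mice within the 8 groups of all 24 samples, not on the compared mice alone. Gene positions and promoters came from RefSeq, by symbol, for 26 and 15 of the 31 called genes.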

Additional observations from a re-analysis of the deposited data

How the results depend on the processing

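None of the 31 genes called in the CYP19A1 line changed direction under any alternative; 11 kept their call in every alternative that tested them (Akr1cl, Mmd2, Nmu, Krt4, Thbs1, Plppr3, Flrt1, Fam78b, Klk1, Gm8550 and 9530014B07Rik), and 18 lost it in at least 1 of the 6 fits that left out a library. The count of 31 became 18 with a pseudocount of 0.1, 15 with TPM of 5 or more in at least 3 samples, 147 with only the 6 libraries fitted and 15 to 27 with 1 library left out. The count of 0 for the difference between the lines became 1 with a pseudocount of 5, 4 without a filter on low values, 5 with median-ratio scaling, 1 after rescaling without the most abundant genes, 79 with tissue covariates, 1 without trend or robust settings and 0 to 6 with 1 library left out. The count of 48 against letrozole became 31 with TPM of 5 or more and 21 to 42 with 1 library left out. Fits chosen after seeing the data gave 28, 38 and 42 genes with only the 20-month groups, and 44 for tamoxifen against untreated without Esr1 untreated replicate 2, the library with the most ribosomal RNA. Median-ratio scaling gave 26 higher and 15 lower genes for tamoxifen against untreated, 39 and 5 against letrozole, and moved the median against letrozole from 0.16 to 0.00. Replicate numbers did not pair the mice (correlations of same-numbered deviations -0.06, -0.11 and -0.23); with the replicate number as a block the counts were 23, 0 and 46. The cause of these shifts was not tested, and depth, unknown in TPM, leaves genes near 1 TPM the least certain.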
